A study of Mus musculus with 4 samples.

Results

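The genes described here drive and restrain the step from G1 into S phase of the cell cycle: the 3 D cyclins (Ccnd1, Ccnd2 and Ccnd3), the kinases they activate (Cdk4 and Cdk6), 4 inhibitors of cyclin-dependent kinases (Cdkn1a, Cdkn1b, Cdkn1c and Cdkn2c) and the retinoblastoma gene Rb1. They were taken by name, and every probe set of the array annotated to 1 of these 10 symbols and to no other was used, which gave 27 of the 34945 single-gene probe sets and 10 of 18193 genes. Of the 27, 24 had a mean log2 signal above the median of all probe sets and entered the test, and the other 3 are given by their signals.

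D cyclins accumulate when growth factors and adhesion signals reach a cell. They bind Cdk4 or Cdk6, and the complex phosphorylates the Rb protein, which then releases E2F transcription factors that switch on the genes of DNA replication. The INK4 protein p18 (Cdkn2c) binds Cdk4 and Cdk6 and keeps them from cyclin D, while the Cip/Kip proteins p21 (Cdkn1a), p27 (Cdkn1b) and p57 (Cdkn1c) bind cyclin-kinase complexes and act most strongly on those of Cdk2. In heart valves, growth of the cushions in the fetus gives way to remodelling of thin leaflets around birth.

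The tissue was leaflets of both semilunar valves (aortic and pulmonary) from newborn mice, and its RNA was hybridised to 4 one-colour Affymetrix arrays. There were 2 pools of Cxcr7-/- neonates and 2 pools of Control neonates, which were wildtype littermates, with 3 animals and 1 array per pool. The mutants lack Cxcr7 (now Ackr3), an atypical receptor that binds and takes up the chemokine CXCL12. Mutant valves could hold fewer leaflets, since the labels give 4 to 6 leaflets per mutant and 6 per wildtype neonate. The labels name no strain, sex or allele design, both valves of an animal went into the same pool, and 50 ng of RNA went through 2 rounds of amplification. Values are MAS5 signals on a linear scale, each array scaled to a common trimmed mean, and log2 fold changes are Cxcr7-/- minus Control on the log2(signal + 22) scale with the standard error from limma (n = 2 and 2 pools). Different probe sets bind with different strength, so signals are compared between pools and not between genes. In RNA from whole leaflets, fewer cells of a type and less RNA per cell cannot be told apart.

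Cxcr7 itself read 28.3 and 328 in Cxcr7-/- leaflets, against 4936 and 5698 in Control leaflets. Its log2 fold change was -5.33 ± 0.76, with an adjusted p of 0.400 in limma. The gene that the mutants lack thus did not pass the adjusted threshold used below. Failing that threshold therefore does not show that a gene was unchanged. Signal left in Cxcr7-/- replicate 2 was higher than in replicate 1, and its source was not tested. Markers of valve interstitial cells and fibroblasts (16 of 16 genes measured, lowest signal 218 for Tcf21) and of endothelium (17 of 17, lowest 57.6 for Robo4) were all above the filter, and so were 22 of 22 cardiomyocyte markers (lowest 101 for Hrc). The median signal per array was 84.5 and 92.5 in Cxcr7-/- leaflets and 110 and 89.9 in Control leaflets. For Actb, the array's 3' control probe set was 15.5 and 11.7 times as bright as its 5' one on the mutant arrays and 20.2 and 19.1 times on the Control arrays. For Gapdh the ratios were 12.6 and 8.20 on the mutant arrays and 12.7 and 24.2 on the Control arrays, where Control replicate 2 stood apart. Nothing in the labels says whether replicates shared a litter or a day. The p-values rest on the spread between these pools only in part. For each probe set, limma draws that spread toward the one of probe sets of similar signal (5.85 prior and 2 residual degrees of freedom).

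The difference between genotypes was widest for Cdkn1c, whose mean signal was 1641 in Cxcr7-/- leaflets and 3271 in Control leaflets. No member probe set passed limma's adjusted threshold of 0.05, where 0% of the 22518 probe sets tested passed (smallest adjusted p 0.413 among the members and 0.400 among all). At an unadjusted p under 0.05 there was 1 of 24 (Cdkn1c, lower), against 10.1% of all probe sets (6.18% lower). Without Control replicate 1, 2.99% of all probe sets passed the adjusted threshold, and without Cxcr7-/- replicate 2 it was 0.0355%, with no member among them. The median absolute log2 fold change of the member probe sets was 0.21, below their median standard error of 0.28. Over all probe sets tested it was 0.31, likewise below the median standard error of 0.34. With each gene taken by its brightest probe set, it was 0.25 for the members and 0.27 over all genes. The member probe sets are not independent, since 7 of the 24 belong to Ccnd2. In 19 of 24 the absolute log2 fold change was under 0.5, beside 16023 of the 22518 probe sets tested. In 14 of 24 the 95% interval lay wholly within a 2-fold difference either way, beside 8331 of 22518.

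**Figure D1:**
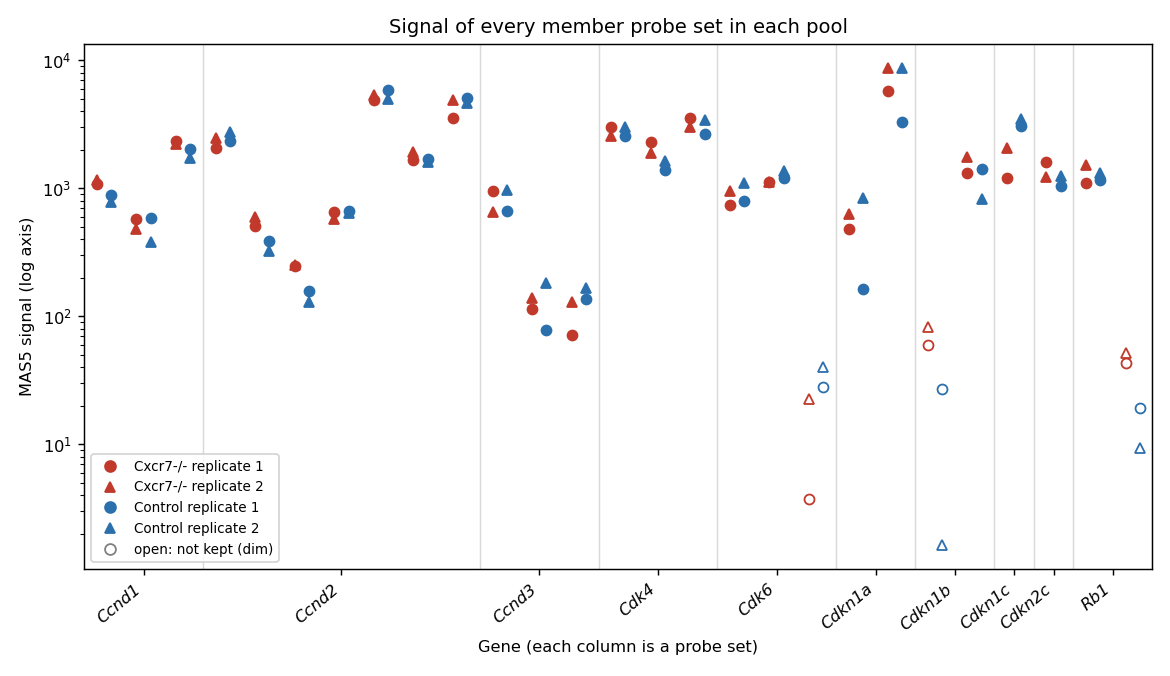
MAS5 signal (log axis) of the 27 probe sets of the 10 genes, 1 column per probe set, with the 2 Cxcr7-/- pools in red to the left and the 2 Control pools in blue to the right. Most columns show red and blue points at the same height, Cdkn1c shows both red points below both blue ones, and Cdkn1a shows 1 blue circle (Control replicate 1) far below the other 3 points.

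Among the D cyclins, Ccnd1 (cyclin D1) had 3 probe sets. Probe set 1448698_at read 2337 and 2219 in Cxcr7-/- leaflets, against 2029 and 1711 in Control leaflets. Both mutant pools were above both Control pools, by a log2 fold change of 0.29 ± 0.25 (adjusted p = 0.725, limma). Probe set 1417419_at had the same order, with 1087 and 1153 in Cxcr7-/- leaflets and 883 and 782 in Control leaflets (0.42 ± 0.27). The third, 1417420_at, overlapped, at 579 and 482 in Cxcr7-/- leaflets and 587 and 379 in Control leaflets (0.16 ± 0.33). All 3 probe sets of Ccnd1 therefore had positive differences, each with a 95% interval that included 0; without Control replicate 2 the last of them was at -0.15.

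Ccnd2 (cyclin D2) had 7 probe sets, which did not give 1 answer. The brightest, 1434745_at, read 4884 and 5351 in Cxcr7-/- leaflets, against 5859 and 4952 in Control leaflets. The genotypes overlapped, and the log2 fold change was -0.08 ± 0.23, with a 95% interval of -0.60 to 0.45. By contrast, 2 dimmer probe sets were higher in both mutant pools. Probe set 1416124_at read 247 and 253 in Cxcr7-/- leaflets and 159 and 130.4 in Control leaflets (0.71 ± 0.35, adjusted p = 0.528 in limma). Probe set 1416123_at read 507 and 599.9 in Cxcr7-/- leaflets and 389.9 and 326 in Control leaflets (0.60 ± 0.30, adjusted p = 0.546). The remaining 4 overlapped, with log2 fold changes from -0.21 (1455956_x_at) to 0.12 (1448229_s_at). The suffixes _s and _x mark probe sets that can bind transcripts of more than 1 gene. The brightest probe sets of Cdk4, Mcm4, Ddb2, Meg3 and Gnas, given below, carry such a suffix too. Taken as the mean of its 7 probe sets, Ccnd2 was at 0.13, the opposite sign of its brightest probe set.

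Ccnd3 (cyclin D3) read 959.5 and 649 on its brightest probe set in Cxcr7-/- leaflets and 662 and 966 in Control leaflets. The spread within each genotype was larger than the difference between them, which was -0.02 ± 0.33. The other 2 probe sets were dim: 1438805_at was at 0.06 ± 0.46 and overlapped, and 1444323_at read 71.5 and 128 in Cxcr7-/- leaflets against 137 and 166 in Control leaflets (-0.55 ± 0.42).

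Of the kinases, Cdk4 had 3 probe sets. Probe set 1422441_x_at, the brightest, read 3537 and 3028 in Cxcr7-/- leaflets, against 2654 and 3429.6 in Control leaflets, and overlapped (0.12 ± 0.25). Probe set 1422439_a_at overlapped as well, with a log2 fold change of 0.01 ± 0.25 and a 95% interval of -0.56 to 0.57. Only 1422440_at separated the genotypes, at 2311 and 1893 in Cxcr7-/- leaflets and 1381 and 1622 in Control leaflets (0.48 ± 0.26, adjusted p = 0.581 in limma).

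Cdk6, the other partner of the D cyclins, read 1113 and 1114 on 1455287_at in Cxcr7-/- leaflets, against 1215 and 1370.0 in Control leaflets. Both mutant pools were lower, by a log2 fold change of -0.21 ± 0.26. On 1435338_at it read 747 and 961 in Cxcr7-/- leaflets and 794 and 1099 in Control leaflets, which overlapped (-0.14 ± 0.30). The third probe set, 1460291_at, was among the 3 too dim to be tested, at 3.75 and 22.7 in Cxcr7-/- leaflets and 27.8 and 39.8 in Control leaflets.

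Among the inhibitors, Cdkn1c, which encodes p57 and is expressed from the maternal allele, had 1 probe set (1417649_at). It read 1208 and 2073 in Cxcr7-/- leaflets, against 3070.1 and 3471 in Control leaflets. Both mutant pools were below both Control pools, and the mutant pools differed from each other more than the Control pools did. The log2 fold change was -1.03 ± 0.31, or 0.488 times the Control level with a 95% interval of 0.298 to 0.801 times (unadjusted p = 0.0103, adjusted p = 0.413, limma). Leaving out 1 pool at a time gave -0.65 without Cxcr7-/- replicate 1 (adjusted p = 1.00) and -1.42 without Cxcr7-/- replicate 2 (adjusted p = 0.522). Leaving out a Control pool gave -1.12 (replicate 1, adjusted p = 0.0909) and -0.95 (replicate 2, adjusted p = 0.336). Its sign was negative in every setting tried.

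Markers of several cell types were lower in Cxcr7-/- leaflets too, but not of all. Valve interstitial and fibroblast markers had 9 of 16 positive log2 fold changes (median 0.07), and macrophage markers 20 of 20 (median 0.83). All 22 cardiomyocyte markers had negative log2 fold changes, with a median of -0.89 and 14 at an unadjusted p under 0.05, where 4.03% of all genes were lower (none adjusted). Their summed signal was 106336 and 159044 in Cxcr7-/- leaflets, against 195434 and 284628 in Control leaflets, the same order of the 4 pools as for Cdkn1c. None of these markers was at 0 in any pool. Smooth muscle markers (9 of 10 negative, median -0.66) summed to 18630.0 and 23399 in Cxcr7-/- leaflets and 28226 and 37326 in Control leaflets, again in that order. With a pool left out, the cardiomyocyte median was -0.57 beside -0.65 for Cdkn1c (without Cxcr7-/- replicate 1) and -1.28 beside -1.42 (without Cxcr7-/- replicate 2). It was -1.24 beside -1.12 on omitting Control replicate 1 and -0.59 beside -0.95 on omitting Control replicate 2. With the same order of pools, omitting a pool shifts both values the same way, so these values add nothing to the shared order. Both mutant pools lay below both Control pools in 22.3% of all probe sets tested. The share with the same order of all 4 pools was not counted, so how common that order is remains unknown. Endothelial markers were lower too (13 of 17 negative, median -0.34, with 5 lower and none higher at an unadjusted p under 0.05), with sums of 23540.0 and 23303 in Cxcr7-/- leaflets and 28447 and 35141 in Control leaflets. Of 9 markers of lung and airway epithelium on the array, 4 passed the filter. The lowest signal among them was 23.4 (Scgb1a1), near the 22 added to every signal. The filter used the mean over all pools, so high Control signal alone could carry a marker past it. This limits what their direction can show. These 4 were all negative (median -1.70). Their sums were 1290.0 and 1469 in Cxcr7-/- leaflets and 4140.0 and 7734 in Control leaflets, also in the order of Cdkn1c. The part of RNA from these cells in the Cdkn1c difference was not tested.

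Cdkn1a, which encodes p21 and is induced by p53, depended on a single pool. Its brighter probe set, 1424638_at, read 5811 and 8747 in Cxcr7-/- leaflets, against 3297 and 8672 in Control leaflets. The other, 1421679_a_at, showed the same pattern, with 482 and 627 in Cxcr7-/- leaflets and 164 and 844 in Control leaflets. In both, Control replicate 1 was far below the other 3 pools, and Control replicate 2 was near or above the higher mutant pool. The 2 Control pools were 1.39 log2 units apart on 1424638_at, a distance that 4.84% of the probe sets tested reached or passed, and 2.22 apart on 1421679_a_at (0.799% of them). The genotype difference was 0.41 ± 0.44 and 0.51 ± 0.64 on these probe sets. It depended on the pool left out, at -0.28 and -0.60 without Control replicate 1 and at 1.11 and 1.62 without Control replicate 2 (adjusted p = 0.200 and 0.147, limma).

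Cdkn1b (p27) read 1306 and 1760.3 on 1434045_at in Cxcr7-/- leaflets, against 1421 and 829 in Control leaflets. Here Control replicate 2 was the low pool, and the genotypes overlapped (0.47 ± 0.33). Leaving out Control replicate 1 gave 0.85 (adjusted p = 0.144), and leaving out Control replicate 2 gave 0.09. Its other probe set, 1419497_at, was too dim to be tested, at 59.8 and 82.4 in Cxcr7-/- leaflets and 27.2 and 1.63 in Control leaflets.

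Cdkn2c (p18), the INK4 inhibitor of the set, read 1619.6 and 1216 in Cxcr7-/- leaflets, against 1034 and 1251 in Control leaflets. Control replicate 2 lay between the mutant pools, and the log2 fold change was 0.30 ± 0.28. Rb1, the substrate of the cyclin D kinases, read 1095 and 1513 in Cxcr7-/- leaflets and 1161 and 1326 in Control leaflets on 1417850_at. The Control values lay inside the range of the mutant ones, with a difference of 0.05 ± 0.28 and a 95% interval of -0.60 to 0.70. The second Rb1 probe set, 1444400_at, was too dim to be tested, at 42.9 and 51.3 in Cxcr7-/- leaflets and 19.2 and 9.32 in Control leaflets.

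**Figure D2:**
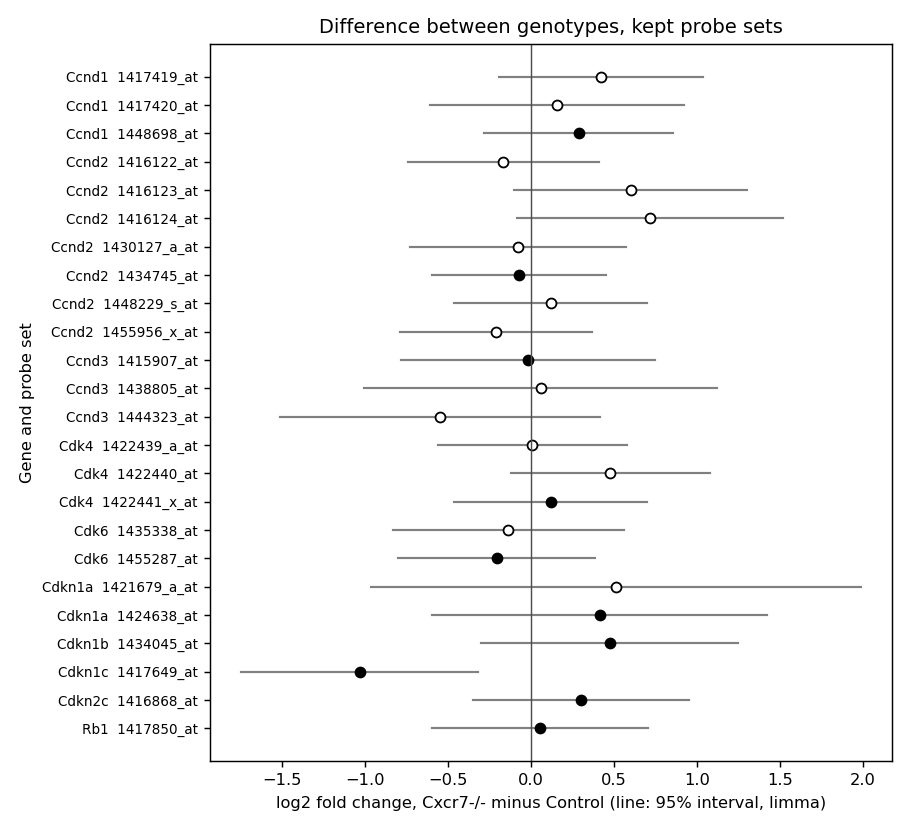
Log2 fold change (Cxcr7-/- minus Control) of the 24 probe sets tested, with 95% intervals from limma as lines and the probe set with the highest mean of each gene as a filled point. The interval excludes 0 for Cdkn1c, at -1.03, and spans 0 for the other 23 probe sets shown.

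Counted over the 24 probe sets, 5 had both mutant pools above both Control pools (2 of Ccnd1, 2 of Ccnd2 and 1 of Cdk4), against 20.1% of all probe sets tested. There were 3 that were lower in both (Cdkn1c, 1 of Cdk6 and 1 of Ccnd3), against 22.3% of all. The remaining 16 overlapped. The first count was near the share over the whole array, and the second was under it. The split depended on the scaling: with each array centred on its median, which moved the median log2 fold change of all probe sets up by 0.14, 8 were higher and 1 was lower (28.8% and 13.8% of all), and with quantile normalization 5 were higher and 2 lower (22.4% and 19.3% of all). Per gene, taking the probe set with the highest mean, 6 of 10 log2 fold changes were positive, with a median of 0.08, against 50.3% positive and a median of 0.0048 over 11260 genes; the median of the 10 was 0.22 after centring.

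**Figure D3:**
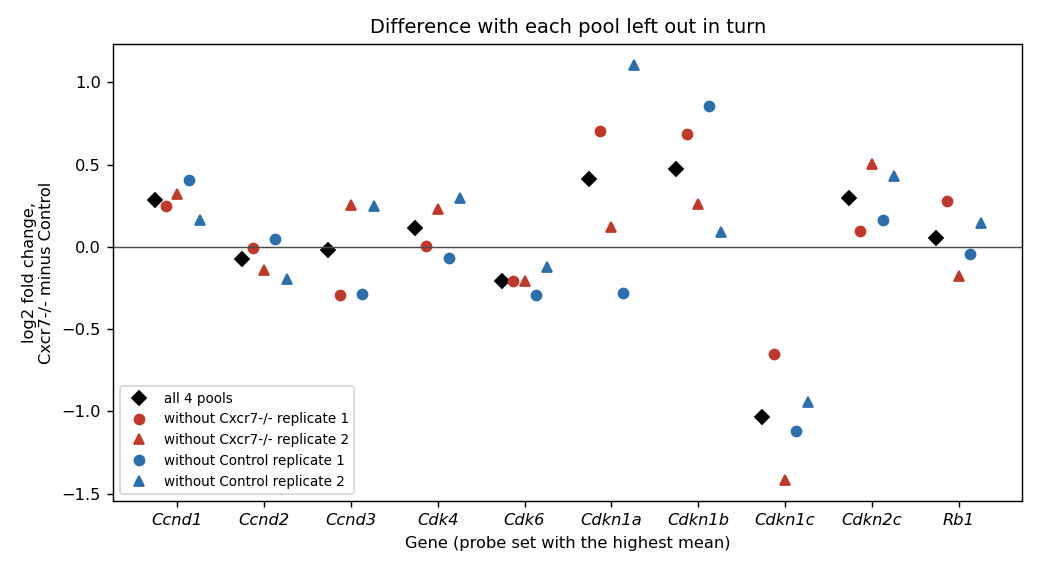
Log2 fold change (Cxcr7-/- minus Control) of the brightest probe set of each gene with all 4 pools (black) and with each pool left out in turn. Cdkn1c stays below 0, between -1.42 and -0.65, while Cdkn1a spans -0.28 to 1.11 according to which Control pool is left out.

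The other genes of the G1/S step lay on both sides of 0. The list had 35 measured genes (cyclins E and A, Cdk2, the E2F factors, the Rb relatives and others). Of these, 20 had positive log2 fold changes, against 50.3% of all genes, and the median was 0.06. In 11 both mutant pools were above both Control pools and in 4 below, against 21.1% and 19.1% of all genes. At an unadjusted p under 0.05, 3 were higher and 1 lower, where 3.93% and 4.03% of all genes were. None passed the adjusted threshold. Cyclin A2 (Ccna2), which drives S phase with Cdk2, read 3801 and 3391 in Cxcr7-/- leaflets, against 1822 and 2129.8 in Control leaflets (0.86 ± 0.24, adjusted p = 0.406 in limma). Both mutant pools were above both Control pools on this and on its second probe set. The Rb relative p107 (Rbl1) read 1908 and 1779 in Cxcr7-/- leaflets and 1084 and 806 in Control leaflets (0.96 ± 0.27), although its dimmer probe set overlapped at 0.13 ± 0.56. Lin54, a DNA-binding subunit of the MuvB complex, was at 0.98 ± 0.31, with its second, dimmer probe set at -0.37 ± 0.46. The repressor E2f8 had lower signal, at 371 and 658 in Cxcr7-/- leaflets and 943 and 944 in Control leaflets (-0.90 ± 0.34). Cdc6, which loads the replicative helicase, was at 0.66 ± 0.34.

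E2F target genes of S phase, which lie downstream of Rb, had 24 of 29 positive log2 fold changes with a median of 0.33. Over all genes 50.3% were positive, with a median of 0.0048. In 16 of the 29 both Cxcr7-/- pools were above both Control pools and in 0 below, against 21.1% and 19.1% of all genes. The unadjusted p was under 0.05 for 4, all higher, where 3.93% of all genes were higher and 4.03% lower. None passed the adjusted threshold. The replication clamp Pcna read 7889 and 6919.9 in Cxcr7-/- leaflets, against 4147 and 4174 in Control leaflets (0.83 ± 0.22). The ribonucleotide reductase subunit Rrm1 was at 0.90 ± 0.25, the helicase subunit Mcm4 at 0.66 ± 0.24, DNA polymerase alpha (Pola1) at 0.72 ± 0.27 and thymidine kinase (Tk1) at 0.82 ± 0.37. Macrophage markers were higher in the same pools (20 of 20 positive, median 0.83), summing to 33693 and 30255 in Cxcr7-/- leaflets and 21694 and 16716 in Control leaflets; their part in these values was not tested.

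Targets of p53, the inducer of Cdkn1a, had 8 of 23 positive log2 fold changes and a median of -0.13, with 2 higher and 2 lower at an unadjusted p under 0.05. Over all genes 50.3% were positive, and 3.93% were higher and 4.03% lower at that p. The receptor gene Eda2r was at 0.90 ± 0.34 and the kinase gene Plk2 at 0.73 ± 0.31. Perp, a desmosome-associated protein, was at -1.23 ± 0.48, the DNA damage sensor Ddb2 at -1.00 ± 0.39 and the translesion polymerase Polk at -0.44 ± 0.29. The median was -0.30 without Control replicate 1 and 0.08 without Control replicate 2.

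Imprinted genes were listed because Cdkn1c is one. Of 20 measured, 13 were positive with a median of 0.09, and at an unadjusted p under 0.05 none was higher and 2 were lower (all genes: 50.3% positive, 3.93% higher and 4.03% lower). Meg3, a maternally expressed long noncoding RNA, read 4866 and 6766 in Cxcr7-/- leaflets, against 11242 and 11977 in Control leaflets (-1.01 ± 0.24, adjusted p = 0.406 in limma). The order of pools was that of Cdkn1c and of the summed cardiomyocyte and smooth muscle markers. Its share over all probe sets was not counted. Of the 9 probe sets of Meg3, 8 were negative, and the exception, 1452906_at, was at 0.13 ± 0.33. All 3 probe sets of Ppp1r9a, which encodes neurabin, were lower in both mutant pools, and its brightest was at -0.80 ± 0.30. Nnat (0.75 ± 0.39), Gatm (0.46 ± 0.33) and the brightest probe set of Gnas (0.33 ± 0.19) had positive differences, while the 2 dimmer probe sets of Gnas were at -0.32 ± 0.52 and -0.17 ± 0.44.

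**Figure D4:**
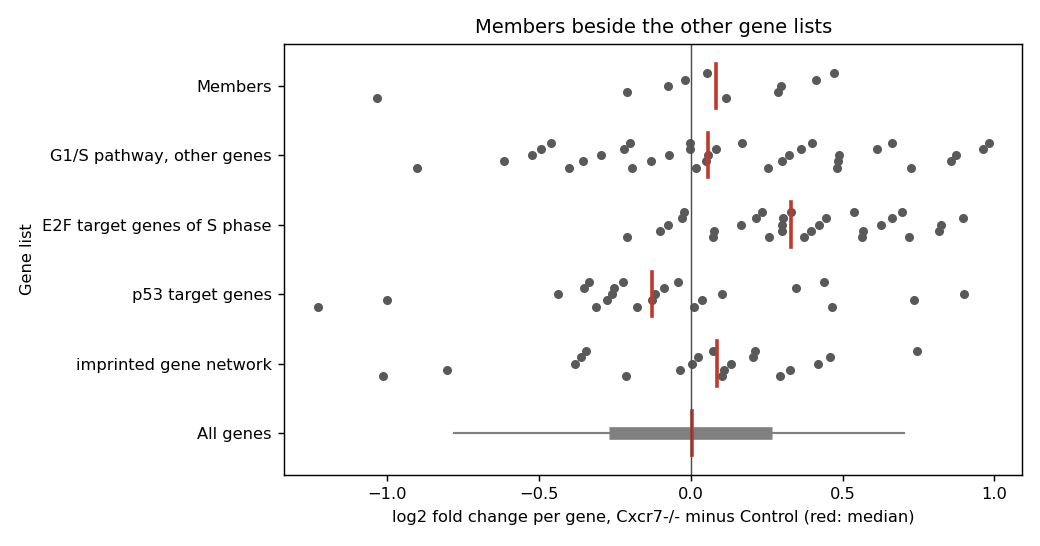
Log2 fold change per gene (Cxcr7-/- minus Control) for the 10 G1 genes and 4 other lists, 1 point per gene and the median in red; for all 11260 genes the thick bar runs between the quartiles and the thin line between the 5th and 95th percentiles. The median is 0.08 for the G1 genes, 0.06 for the other G1/S genes, 0.33 for E2F targets, -0.13 for p53 targets and 0.09 for imprinted genes.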

How the data were processed

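Gene expression was measured in 2 Cxcr7-/- and 2 Control pools of 3 neonates. The deposited values are linear intensity values per probe set, made with Affymetrix Expression Console and MAS5 per the submitters' processing notes; software versions, detection calls and a build were not given in the sources used. Leaving out the extreme signals, the middle 96% averaged 500.003 on every array. MAS5 subtracts local background, which makes dim signals imprecise, and 2 rounds of amplification favour the 3' end. With arrays, their number limits the precision.

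From 45101 probe sets, 64 controls were set aside. Signals were taken as log2(signal + 22), where 22 is the rounded 25th percentile, and probe sets with a mean above the median were kept (22518). Symbols came from the platform annotation, updated by gene identifier; genome positions were not used. The test was limma 3.58.1 under R 4.3.3 (intensity trend, two-sided, Benjamini-Hochberg over all probe sets kept), with 5.85 prior and 2 residual degrees of freedom. An exact permutation test of 2 against 2 pools reaches 0.333 at the least and was left out. On simulated data with 200 changed probe sets of 22518, the procedure called 0.97% of those changed 2-fold, 33.3% changed 4-fold and 76.1% changed 8-fold. The simulated noise was independent between probe sets and held no differences between whole pools. These rates therefore need not hold for the measured pools, where Cxcr7 itself was at -5.33 and was not called (adjusted p = 0.400, limma). Each gene of a list stood by its brightest probe set with a single symbol. Some listed genes were not matched to a single-symbol probe set and are not reported here. Named genes were all members and the 5 of each list with the smallest unadjusted p. Members and lists were chosen with earlier results of these data known. Alternatives were 2 other scalings, 2 pseudocounts, 2 filters, no trend, a replicate block, each pool left out, and the mean of a gene's probe sets.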

Additional observations from a re-analysis of the deposited data

How the results depend on the processing

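Over 13 alternatives, none of the 309 values of member probe sets passed the adjusted threshold (smallest adjusted p 0.0909, Cdkn1c without Control replicate 1), and 12 of the 24 kept their sign throughout; for Cdkn1c the adjusted p ranged from 0.0909 to 1.00. At an unadjusted p under 0.05 there was 1 of 24 member probe sets in the fit reported, beside 2279 of 22518 over all probe sets. With median centring there were 3 (Ccnd2 1416123_at and 1416124_at, and Cdkn1c), beside 2230 of 22518. There were 2 each with quantile normalization (beside 2172 of 22518), no intensity trend (2296 of 22518) and no filter (3408 of 45037). Median centring put 8 of the 24 member probe sets higher in both mutant pools and 1 lower, against 28.8% and 13.8% of all probe sets. With a lone pool in 1 genotype these counts are larger by construction, 8 to 11 higher and 5 to 8 lower. Over all probe sets, calls at the adjusted threshold were 0 to 673 with a pool left out (673 without Control replicate 1 and 8 without Cxcr7-/- replicate 2, 2.99% and 0.0355% of those tested), and those at an unadjusted p under 0.05 were 885 to 4822, and 1105 with the filter at the 75th percentile, which tested 11259.

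Sign changes were as follows on the log2 scale. With median centring Ccnd2 was at 0.060 on 1430127_a_at and at 0.063 on 1434745_at, Ccnd3 at 0.12 on 1415907_at and Cdk6 at 0.00056 on 1435338_at. Quantile normalization put Cdk4 at -0.020 on 1422439_a_at, and the mean of its probe sets put Ccnd2 at 0.13. With a pool left out, Ccnd1 1417420_at ranged from -0.15 to 0.46, Ccnd2 1430127_a_at from -0.17 to 0.018, 1434745_at from -0.20 to 0.046 and 1455956_x_at from -0.44 to 0.014. Ccnd3 1415907_at ranged from -0.29 to 0.26 and 1438805_at from -0.46 to 0.57. Cdk4 1422439_a_at ranged from -0.11 to 0.13, 1422441_x_at from -0.067 to 0.30 and Cdk6 1435338_at from -0.37 to 0.092. Cdkn1a 1421679_a_at ranged from -0.60 to 1.62, 1424638_at from -0.28 to 1.11 and Rb1 1417850_at from -0.18 to 0.28. Median centring added 0.14 to every log2 fold change. For the other sign changes the cause was not tested.

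Same-numbered pools deviated in opposite ways (r = -0.26 across probe sets), and no label ties the numbers to a litter or day, so pools were not paired. With the replicate block the calls stayed at 0 among all probe sets and among members, and Cdkn1c had an adjusted p of 0.541. A crossed replicate block, chosen after seeing the data, gave 5 calls among all probe sets and 0 among members. Dim signal limits Ccnd3 1438805_at and 1444323_at and the 3 probe sets not tested, and without the filter Cdkn1b 1419497_at was at 1.44 (unadjusted p = 0.0393, adjusted p = 0.646).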
